A study of Xiphophorus multilineatus with 4 samples.

Results

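In the brain of the swordtail fish X. multilineatus 18872 transcripts were counted. Of these, 54 were well read, within 25% between the brains of a group, and modestly higher expressed in HQJE than in LQJE fish. To find them, the counts of each brain were divided by a size factor, the median over transcripts with counts in all 4 brains of the count over its geometric mean, which gives a normalized count. A transcript was taken when its mean normalized count over the 4 brains was 200 or more, when the larger brain exceeded the smaller by at most 25% in each group, and when the HQJE mean was from 1.4 to under 2 times the LQJE mean. The transcripts were thus chosen by their counts in these same brains. Their level, their agreement within groups and their difference between groups are given as a description. The p-values printed below come from fits over all transcripts and are not a test of the 54.

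The brains came from adult Y-II males, one of the size classes of this species. All were second-generation laboratory fish descended from wild-caught females, and all were kept as adults on the high quality diet. The 2 HQJE males (high quality juvenile environment, fish 15 and 11) had been housed alone after 14 days of age and fed flakes and brine shrimp without limit. The 2 LQJE males (low quality juvenile environment, fish 17 and 18) had been raised in groups at more than 6 fish per litre and fed flakes once a day, so food and density differ together between the groups and cannot be told apart. Each whole brain gave 1 polyA RNA library.

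Nutritional programming is the long-term influence of nutrition in early development on later health and viability. The study asked whether it affects feeding and movement in adult males, and whether it affects gene expression in the brain. The brain takes part in energy balance because neurons, mainly of the hypothalamus, sense energy stores and adjust feeding and activity. RNA of a whole brain pools neurons, glia, blood vessels and any attached tissue, so that a change in a small nucleus is diluted, and fewer cells of a type and less RNA per cell cannot be told apart in such samples. A transcript with many reads has a small counting error, so that a difference of less than 2-fold can exceed that error. More reads do not lower the variation between fish, which only 2 brains per group measure here.

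The files name transcripts by X. maculatus identifiers alone. The study pairs gene names with 97 of the 131 transcripts that it lists as differentially expressed, and none of the 54 transcripts is among those 131. The proteins they encode are therefore not named here, and 2 of the transcripts are identified below, the one with the highest mean and the one with the widest gap between the groups. The brain label could not be checked against neuronal or glial markers for the same reason.

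Total counts lay between 14260762 and 25531496 per brain, the lowest in LQJE fish 17, and size factors between 0.689 and 1.24. The limit of 25% within a group was exceeded in HQJE fish by 12.3% and in LQJE fish by 16.4% of the 9288 transcripts with a mean of 200 or more, and 7068 transcripts were within it in both groups. Among these 7068 the median fold of HQJE over LQJE was 0.993, with quartiles of 0.920 and 1.08. The 54 transcripts were 0.764% of them. A further 497 lay from 1.2-fold to under 1.4-fold higher, and 1 transcript was more than 2-fold higher.

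**Figure D1:**
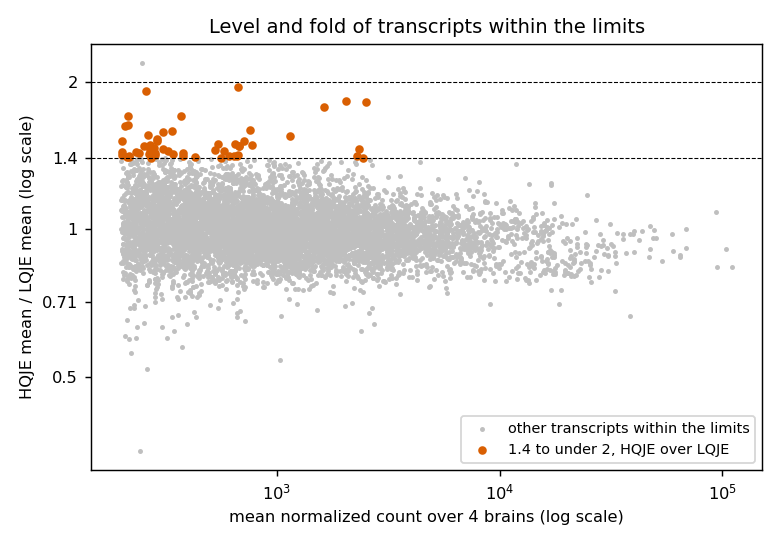
Mean normalized count over the 4 brains (x axis, log scale) and the HQJE mean over the LQJE mean (y axis, log scale) of the 7068 well-read transcripts within the limits. The 54 transcripts (orange) lie between the dashed lines at 1.4 and 2, all with means between 201 and 2522, while the other transcripts (grey) reach a mean of 110544.

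The 54 transcripts took a small part of each library. They held 0.193% and 0.209% of the counts in HQJE fish 15 and 11, against 0.122% and 0.130% in LQJE fish 17 and 18. Their mean normalized counts ranged from 201 to 2522 with a median of 340, below the median of 987 over the 7068 transcripts. Means under 300 were found in 42.6% of the 54 and in 10.7% of the 7068. The set thus sits near the lower end of the well-read range, which the plot of level and fold also shows.

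Most of the differences were close to the lower bound of the definition. The fold ranged from 1.4004 to 1.96 with a median of 1.46 and quartiles of 1.42 and 1.55. It was below 1.5 in 36 transcripts, from 1.5 to under 1.6 in 9, from 1.6 to under 1.8 in 5 and 1.8 or more in 4. The median fold was 1.45 in the 23 transcripts with means of 200 to under 300, 1.45 in the 9 with means of 300 to under 500, 1.48 in the 15 with means of 500 to under 1000, and 1.55 in the 7 with higher means.

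The transcript with the highest mean was ENSXMAT00000003703. Its normalized counts were 3184 and 3330 in HQJE fish 15 and 11, against 1852 and 1722 in LQJE fish 17 and 18. The lower HQJE brain was 1.72 times the higher LQJE brain. The means were 3257 ± 103 in HQJE fish and 1787 ± 91.9 in LQJE fish (SD, n = 2 each), a fold of 1.82. The raw counts behind them were 3424 and 3631 in HQJE fish, against 1277 and 2132 in LQJE fish, and the pooled ratio, of summed counts per unit of size factor, was 1.84 with an exact 95% binomial interval of 1.77 to 1.92, for counting error only.

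The transcript with the widest gap was ENSXMAT00000012154. Its normalized counts were 891 and 871 in HQJE fish 15 and 11, against 415 and 486 in LQJE fish 17 and 18. The lower HQJE brain was thus 1.79 times the higher LQJE brain. Its means of 881 ± 14.0 in HQJE fish and 451 ± 50.5 in LQJE fish (SD, n = 2 each) gave a fold of 1.96, the highest of the 54. The pooled ratio was 1.91 with a counting interval of 1.76 to 2.07, which reaches past the upper bound of 2.

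Besides ENSXMAT00000003703, 6 transcripts had means above 1000, all without a gene name here. The second in level had normalized counts of 2557 and 3109 in HQJE fish 15 and 11, against 1952 and 2094 in LQJE fish 17 and 18, and with a fold of 1.4004 it was the smallest difference of the 54. The fourth in level had 2685 and 2701 in HQJE fish 15 and 11, which differ by a ratio of 1.006, the closest HQJE pair of the 54, against 1835 and 1981 in LQJE fish 17 and 18. In the third, with a fold of 1.46, the HQJE brains were at 2645 and 2926, against 1836 and 1981 in the LQJE brains. These 3 transcripts were similar in level and close to the lower bound in fold.

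The other 3 of these transcripts had larger differences. The fifth in level, with a fold of 1.83, had normalized counts of 2902 and 2409 in HQJE fish 15 and 11, against 1530 and 1368 in LQJE fish 17 and 18. The sixth had 2152 and 2014 in HQJE fish, against 1041 and 1301 in LQJE fish, where the ratio of 1.2496 between the LQJE brains was just inside the limit. The seventh had 1476 and 1306 in HQJE fish 15 and 11, against 951 and 838 in LQJE fish 17 and 18, a fold of 1.55. In all 3 fish 15 was the higher HQJE brain, unlike in most of the 54.

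Among the 23 transcripts with means under 300 the largest fold was 1.92, in a transcript with normalized counts of 302 and 374 in HQJE fish 15 and 11, against 173 and 180 in LQJE fish 17 and 18. It rested on 325 and 408 raw counts in HQJE fish, against 119 and 223 in LQJE fish, and its counting interval ran from 1.68 to 2.17. A transcript with a fold of 1.71 had the closest agreement of the LQJE brains among those above 1.6-fold, at 455 and 482 in HQJE fish 15 and 11, against 276 and 273 in LQJE fish 17 and 18. The lowest raw count of any of the 54 in a single brain was 234 (fish 15) and 242 (fish 11) in the HQJE group, against 102 (fish 17) and 197 (fish 18) in the LQJE group.

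**Figure D2:**
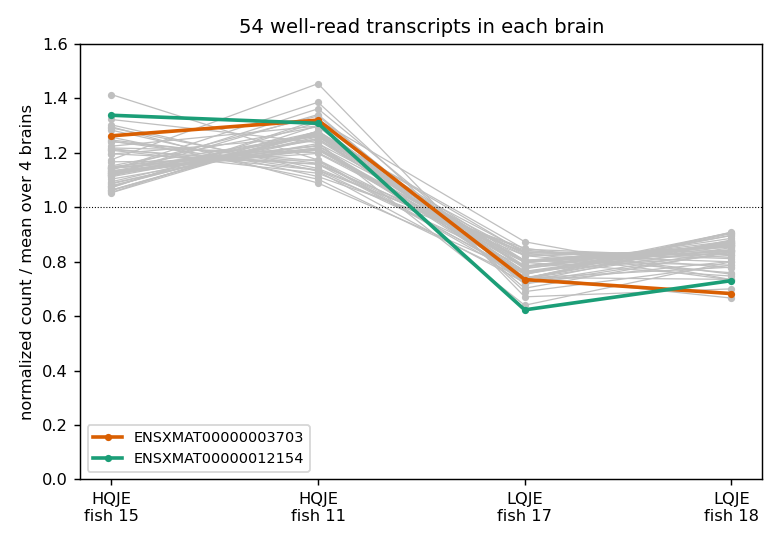
Normalized count of each of the 54 transcripts divided by its mean over the 4 brains (y axis) in HQJE fish 15 and 11 and LQJE fish 17 and 18 (x axis). Each line joins the values of 1 transcript, with ENSXMAT00000003703 in orange and ENSXMAT00000012154 in green. All lines are above 1 in both HQJE brains and below 1 in both LQJE brains, as the definition requires.

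The definition leaves no room for the groups to overlap, and in all 54 transcripts both HQJE brains were above both LQJE brains. Among all 18474 transcripts with a count this held for 20.2%, and among the 7068 for 23.2%, so that nothing is read from it. The width of the gap is described instead. The lower HQJE brain exceeded the higher LQJE brain by 1.16 to 1.79 times with a median of 1.33. The gap was 25% or more in 44 transcripts, 1.4 times or more in 12 and 1.5 times or more in 6.

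Counting error was small against the distance of the folds from 1, but not against their distance from the lower bound of 1.4. The first follows largely from the definition, which sets a minimum count and a minimum fold, so nothing is read from it. The upper bound of the exact 95% counting interval was between 1.08 and 1.33 times its lower bound. The lowest lower bound among the 54 was 1.21. In 11 transcripts the interval lay above 1.4, and in 43 it reached below 1.4, so that for these the counting error spans the lower bound of the definition. In 2 it reached 2 or more.

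**Figure D3:**
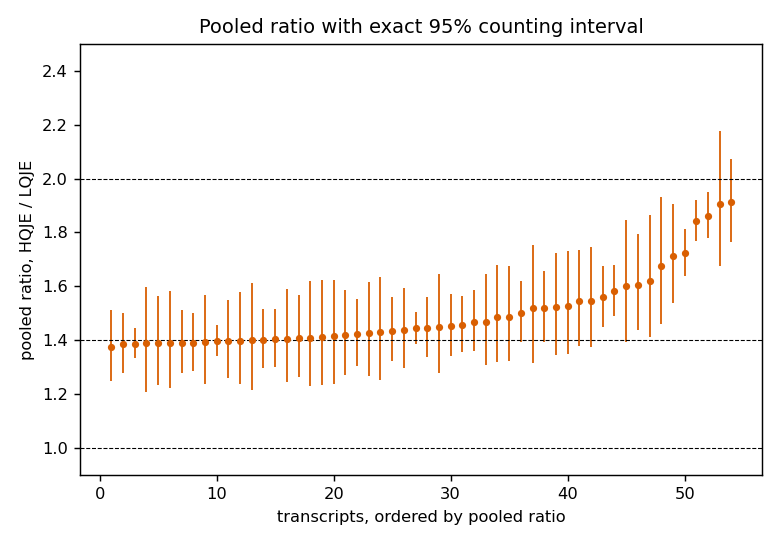
Pooled ratio of HQJE over LQJE counts per unit of size factor (points, y axis) of the 54 transcripts, ordered by that ratio (x axis), with exact 95% binomial intervals for counting error (bars). Dashed lines mark 1, 1.4 and 2. The lowest bound is 1.21, and in 43 transcripts the interval crosses 1.4.

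Within each group 1 brain was the higher one in most of the 54 transcripts. Fish 11 was the higher HQJE brain in 38 of the 54 transcripts (70.4%), while over the 7068 transcripts fish 11 was the higher one in 38.9%. The median ratio of fish 11 over fish 15 was 1.08 in the 54 and 0.974 in the 7068. In the LQJE group fish 18 was above fish 17 in 39 of the 54 transcripts (72.2%) and in 67.1% of the 7068, with median ratios of 1.08 and 1.05. The definition does not ask which brain of a group is higher, but each brain's count enters its group mean and the ratio within its group. The shares are therefore not independent of the choice. Transcripts share libraries and size factors and are not replicates, so no test was made of these shares.

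The larger over the smaller brain had a median of 1.122 in HQJE fish and 1.109 in LQJE fish among the 54. Among the 7068 transcripts within the limit these medians were 1.068 and 1.080, and among all 9288 well-read transcripts they were 1.084 and 1.102. Both ratios were 1.1 or less in 13 of the 54 (24.1%) and in 41.0% of the 7068. In 15 of the 54 at least 1 ratio was above 1.2.

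The bounds of the definition fall within a continuous range. The 3 transcripts just above the lower bound had folds of 1.4004, 1.4020 and 1.4023, and the 3 just below it had 1.3988, 1.3986 and 1.3936. Below the upper bound the highest folds were 1.96, 1.92 and 1.83, and the only transcript above it had 2.18, with normalized counts of 312 and 367 in HQJE fish 15 and 11, against 151 and 160 in LQJE fish 17 and 18. The 2 lowest means inside were 201 and 202, and the 2 highest of otherwise fitting transcripts outside were 194 and 193. Of the 165 well-read transcripts with a fold from 1.4 to under 2, 111 were left out by the limit within a group, 51 of them by the LQJE pair alone, 30 by the HQJE pair alone and 30 by both.

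In the quasi-likelihood test of edgeR over all 18474 transcripts, the log2 fold changes of the 54 lay between 0.47 and 0.95 with standard errors between 0.078 and 0.19, and their median was 0.53, against -0.02 over all transcripts tested. All 54 had an unadjusted p of 0.05 or less, and 31 had one of 0.01 or less. Over all transcripts 3.01% were higher in HQJE fish at 0.05 or less and 0.482% at 0.01 or less. Since the transcripts were chosen for close replicates and a difference, these counts follow from the choice and nothing is read from them. At the threshold of the study, an unadjusted p of 0.01 or less and at least 2-fold, 0 of the 54 were past it. The definition, with folds under 2, largely fixes this, though the fit scales the counts by another method. Of all transcripts 0.0487% were past the threshold in this direction. Without TMM scaling 1 of the 54 was past it.

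After Benjamini-Hochberg adjustment over all transcripts, the quasi-likelihood test of edgeR gave 0 of the 54, and 0.00% of all transcripts, an adjusted p of 0.05 or less. The lowest adjusted p was 0.576, that of ENSXMAT00000003703, whose log2 fold change was 0.85 (standard error 0.084, unadjusted p of 7.51e-05). The log2 fold change of ENSXMAT00000012154 was 0.95 (standard error 0.12), with an adjusted p of 0.622 in the same test. Both transcripts were chosen for close replicates and a difference, so nothing is read from these standard errors and p-values.

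The other tests gave adjusted p-values of 0.05 or less to some of the 54. The likelihood ratio test of edgeR did so for 8, against 0.0920% of all transcripts in this direction, and the exact test of edgeR for 6, against 0.0595%. DESeq2 gave an adjusted p to 7 of the 54, those with means above 1000, and all 7 were at 0.05 or less, against 0.482% of the 4148 transcripts that it adjusted. The other 47, all with means under 1000, had an unadjusted p from DESeq2 but no adjusted one. The count for DESeq2, and the count for all 3 tests, could therefore not exceed 7. In all, 9 of the 54 were past this level in at least 1 of these tests and 5 in all 3, among them ENSXMAT00000003703. These counts, too, come from the contrast by which the transcripts were chosen.

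The size of the differences depended on which brain was left out. The median fold of the 54 was 1.53 when fish 15 was left out and 1.41 when fish 11 was. It was 1.41 in the absence of fish 17 and 1.54 in that of fish 18. The lowest fold of any of the 54 was 1.26, without fish 11. Without fish 11 the fold was below 1.4 in 24 of the 54, and without fish 17 also in 24, while without fish 15 it was so in 5 and without fish 18 in 3. In 17 transcripts the fold stayed from 1.4 to under 2 whichever brain was left out. The fold of ENSXMAT00000003703 lay between 1.76 and 1.89, and that of ENSXMAT00000012154 between 1.81 and 2.12. With a brain left out, 1 group has a single brain, so its spread between brains is not measured and only folds are given.

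**Figure D4:**
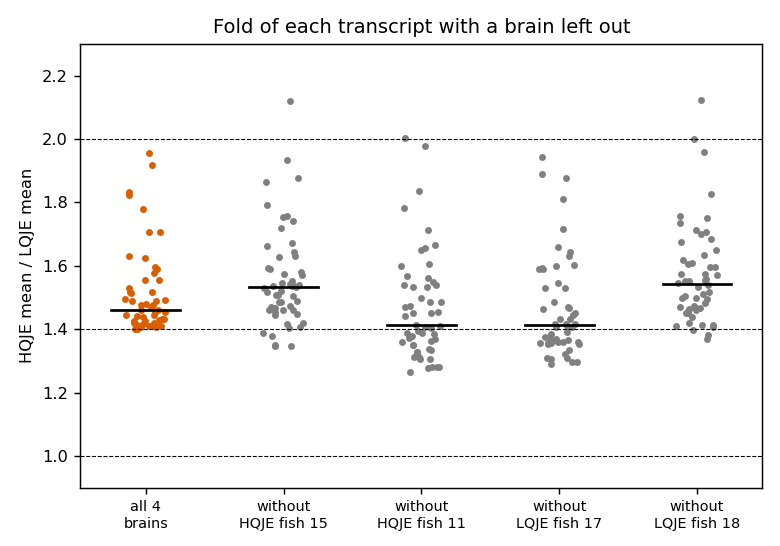
Fold of HQJE over LQJE (y axis) of each of the 54 transcripts with all 4 brains (orange) and with 1 brain left out (grey), with the median as a bar. Points are spread sideways for display. The medians are 1.46 with all brains and 1.41 without fish 11 or fish 17, and the definition keeps every point above 1.

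Markers of other tissues were among the transcripts that the study listed as differentially expressed between these brains. Fast skeletal muscle transcripts named by the study, 8 for 7 of 17 muscle symbols, summed to normalized counts of 315 and 300 in HQJE fish 15 and 11, against 954 and 1010 in LQJE fish 17 and 18. The 2 pineal and photoreceptor transcripts tph1a and saga, of 12 symbols, summed to 1488 and 428 in HQJE fish 15 and 11, against 325 and 268 in LQJE fish 17 and 18. Muscle and pineal markers were matched through that list alone, so their difference was fixed by how they were found. Markers that are not on it could not be checked. The part of muscle, pineal or other tissue in the differences of the 54 transcripts was not tested.

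By the same definition turned round, 42 well-read transcripts were lower expressed in HQJE fish. The median fold of HQJE over LQJE was 1.46 in the 54 and 0.666 in the 42, and the median of the mean normalized counts was 340 in the 54 and 428 in the 42. The highest mean was 2522 in the 54 and 38505 in the 42. Fish 11 was the higher HQJE brain in 70.4% of the 54 and 45.2% of the 42, and fish 18 was the higher LQJE brain in 72.2% of the 54 and 47.6% of the 42. These differences between the sets were not tested, because both were chosen by the counts of these brains. The balance of the directions moved with the scaling. With the size factors used here 56.3% of the transcripts that met either definition were higher in HQJE fish, with TMM-scaled library sizes 48.3% (43 higher and 46 lower), and with library sizes alone 77.7% (94 higher and 27 lower).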

How the data were processed

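After quality trimming, the authors aligned the reads with Bowtie2 to X. multilineatus transcripts that best match those of X. maculatus, and deposited raw counts per transcript and brain. The treatment of read pairs, strand and multiply matching reads is not stated for these files, so counts of near-identical copies are uncertain. Groups were taken from the sample titles, which exchange 2 letters of the group names. Each brain is a separate fish. The p-values weigh the difference between the groups against the variation between brains within groups. That variation comes from these 4 brains alone, 2 per group. The definition caps this variation in the transcripts described here, but it was not smaller in them at the median. Among the transcripts described here the median ratio of the larger over the smaller brain was 1.122 in HQJE fish and 1.109 in LQJE fish. Over all well-read transcripts these medians were 1.084 and 1.102. The median of the mean normalized counts was 340 in the former and 812 in the latter. Since the levels differ, these ratios do not show how far the limit lowered the variation.

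Size factors and the definition were applied to the deposited counts with pandas 2.3.3. Transcripts at 0 in all brains (398) were left out of the tests. The rest were fitted with edgeR 4.0.16 (R 4.3.3, limma 3.58.1), TMM scaling and the quasi-likelihood test. This fit was first run on simulated counts, where the only requirement was that the median of known folds was recovered. Standard errors are the absolute log2 fold change over the square root of F. Alternatives were the exact and likelihood ratio tests, DESeq2 1.42.0, no TMM, DESeq2 size factors in edgeR, filterByExpr, other bounds, and each brain left out. Counting intervals are exact binomial (scipy 1.17.1), and cover counting error only, since PCR copies were not told apart.

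The set of transcripts, the lists and the tests were chosen with earlier results of these data known. Transcripts were to be named by level, gap, p, position at the bounds and gene lists. Without gene names only the highest mean and the widest gap were to be printed. Of the lists, only muscle and pineal markers had matches among the study's gene names, and neuron, astroglia, oligodendrocyte, microglia, blood and pituitary markers had none.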

Additional observations from a re-analysis of the deposited data

How the results depend on the processing

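The number of transcripts that met the definition depended on its bounds. It was 94 with library sizes alone, 87 with a minimum mean of 100, 23 with a minimum of 400, 22 with a limit of 15% within a group and 114 with a limit of 50%. With TMM-scaled library sizes it was 43, of which 42 were among the 54. With a brain left out, an alternative added after the data were seen that applies the limit only to the group with both brains, it ranged from 79 (without HQJE fish 11) to 290 (without LQJE fish 18) and was 233 without HQJE fish 15 and 126 without LQJE fish 17. The median fold of the transcripts that met each of the other scalings or bounds was between 1.45 and 1.48, which the bounds largely fix. The median fold of the original 54 was between 1.41 and 1.54 with a brain left out.

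At the threshold of the study 35 of all transcripts were called (9 higher and 26 lower), 40 without TMM scaling (19 higher and 21 lower), 80 with the edgeR exact test, 121 with the likelihood ratio test, 53 with DESeq2 and 56 to 348 with a brain left out, the most without LQJE fish 18. Of the 54, 0 were called, 1 without TMM scaling, and 0 to 2 with a brain left out. Adjusted p-values of 0.05 or less numbered 0 among the 54 in the quasi-likelihood test, 6 in the exact test and 8 in the likelihood ratio test. With DESeq2 they numbered 7, the only ones of the 54 that it adjusted. Those at an unadjusted p of 0.05 or less numbered 54, and 28 to 50 with a brain left out. Those at 0.01 or less numbered 31, and 7 to 16 with a brain left out, 16 without HQJE fish 15, 7 without HQJE fish 11, 8 without LQJE fish 17 and 12 without LQJE fish 18. Over all transcripts the number at an unadjusted p of 0.05 or less moved as well. It was lower without HQJE fish 15, HQJE fish 11 or LQJE fish 17, and higher without LQJE fish 18. This number counts both directions, whereas the 54 are all higher in HQJE fish. It therefore cannot show whether the drops are particular to the 54. Without LQJE fish 18 it rose while the number among the 54 fell. The drops among the 54 are not read as a property of these transcripts, which were chosen by their counts in these same brains. The cause of these shifts was not tested. No paired analysis was possible because the fish numbers are not shared between groups.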
